A study of Mus musculus with 19 samples.

Results

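Cnn1, Acta2, Myh11 and Tagln encode contractile and actin-bound proteins that mark the smooth muscle of vessel walls. These 4 genes were chosen by name, out of 22180 genes measured on arrays of 19 isolated mouse hearts. Each is read by 1 probe set. Of the hearts, 5 were from mice at ZT12 that lack Rev-erb alpha, 7 were wild-type at ZT12 and 7 were wild-type at ZT0. ZT0 is the time of lights on and ZT12 the time of lights off. Wild-type mice are labelled as strain C57Bl6J, and the knockout mice carry no strain label. Neither age nor the deleted allele is given in the sources used here. All hearts were isolated and kept on a Langendorff perfusion, which feeds the coronary arteries from the aorta. Each was given 20 min of steady perfusion, 20 min with the pump stopped and 20 min of renewed flow before freezing. Neither a heart spared ischemia nor a knockout heart at ZT0 is among the labelled samples, so all values describe reperfused hearts. Levels are the deposited log2 values, on which a step of 1 is a doubling. Each heart had 1 array, and the number of hearts per group limits the precision.

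Smooth muscle cells of arteries contract when calcium activates myosin light chain kinase, which lets smooth muscle myosin pull on smooth muscle actin. Many genes of this apparatus are switched on together by serum response factor and its partner myocardin, which bind a DNA element called the CArG box. In the heart these genes mark the media of coronary arteries and of the great vessel stumps. Rev-erb alpha, encoded by Nr1d1, is a nuclear receptor of the circadian clock that represses its target genes.

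The targeted gene, Nr1d1, had levels of 6.30 to 6.51 in knockout hearts at ZT12, 6.46 to 7.28 in wild-type hearts at ZT12 and 5.76 to 6.67 in wild-type hearts at ZT0. The knockout minus wild-type difference at ZT12 was -0.35 (SE 0.15, adjusted p 0.374). Which bases of the gene are deleted is not given in the sources used here, so this probe set does not check the labels. The hearts also divided by Bmp10, a gene of atrial muscle, with levels of 9.01 to 10.30 in 10 hearts and 2.66 to 4.15 in the other 9. The 10 hearts high in Bmp10 were 1 of 5 knockout hearts (replicate 1), 3 of 7 wild-type hearts at ZT12 and 6 of 7 wild-type hearts at ZT0. The mean level of 6 atrial markers was 5.19 to 9.22 (median 5.63) in knockout hearts, 5.70 to 9.26 (median 7.93) in wild-type hearts at ZT12 and 7.83 to 9.50 (median 9.09) in wild-type hearts at ZT0. The hearts high in Bmp10 were thus spread unevenly over the groups, and member values are given below within both classes of hearts. None of the 6 atrial markers had an adjusted p under 0.05 in any comparison of the groups (limma). Low Bmp10 did not mean absence of other atrial transcripts. The mean of the 6 atrial markers was 5.19 to 8.29 in hearts low in Bmp10 and 8.94 to 9.50 in hearts high in it. In whole hearts, fewer cells of a type and less RNA per cell cannot be told apart. Cardiomyocyte markers averaged 11.19 to 11.25 in knockout hearts, 11.12 to 11.20 in wild-type hearts at ZT12 and 11.16 to 11.21 in wild-type hearts at ZT0.

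Cnn1 (gene ID 12797, chr9:22099221-22109221 in GRCm38.p6) encodes calponin 1, which binds actin and slows the myosin motor. Its levels in knockout hearts 1 to 5 were 6.06, 4.71, 5.29, 4.95 and 3.93. Wild-type hearts at ZT12 had a lowest level of 3.79, a median of 4.50 and a highest level of 4.87. At ZT0 the lowest wild-type level was 4.85, the median 5.17 and the highest 5.85. The 5 knockout hearts thus spanned nearly the whole range of the series, and 3 of them lay above every wild-type heart at ZT12. Of the 7 wild-type hearts at ZT12, 6 lay below every wild-type heart at ZT0. Such counts of hearts, here and below, describe single genes, and the share of all genes with such counts is not given. Means were 4.99 ± 0.78 (SD, n = 5) in knockout hearts, 4.45 ± 0.42 (SD, n = 7) in wild-type hearts at ZT12 and 5.21 ± 0.33 (SD, n = 7) in wild-type hearts at ZT0. The 250 bases before the RefSeq start of Cnn1 and of Acta2 are shown because these promoters can be read for CArG boxes beside the members' levels. Capitals mark matches to the CArG box with up to 1 other base in its centre. The windows are chr9:22099003-22099252 on the plus strand and chr19:34255374-34255623 on the minus strand. Each window overlaps the range printed here for its gene, so the start that it precedes lies inside that range. Positions count back from the last base of the window, not from the end of the range.
Cnn1: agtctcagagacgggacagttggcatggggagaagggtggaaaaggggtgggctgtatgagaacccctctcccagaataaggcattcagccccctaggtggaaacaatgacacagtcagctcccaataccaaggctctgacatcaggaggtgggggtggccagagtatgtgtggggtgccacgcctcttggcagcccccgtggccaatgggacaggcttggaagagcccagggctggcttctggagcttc
Acta2: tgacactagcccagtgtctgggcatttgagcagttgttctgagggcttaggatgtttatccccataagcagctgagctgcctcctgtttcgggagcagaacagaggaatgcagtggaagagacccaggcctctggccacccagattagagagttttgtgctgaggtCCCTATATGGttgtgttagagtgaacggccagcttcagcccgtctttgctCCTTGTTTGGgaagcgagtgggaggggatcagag

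The 250-base windows of both genes were searched on both strands, with bases counted back from the start at -1. The Acta2 window held CCCTATATGG from -84 to -75 and CCTTGTTTGG from -34 to -25, each with 1 other base in the centre of the CArG box. It also held CAGCTG, the core of an E-box, from -182 to -177. The Cnn1 window held no match of either kind. CACGTG, the E-box bound by clock proteins, and AGGTCA, the core of the element bound by REV-ERB proteins, were in neither window. Of 32851 promoter windows of this length in the RefSeq table, 1.47% held an exact CArG box and 8.59% one with up to 1 other base. CACGTG was in 6.02%, AGGTCA in 14.0% and CAGCTG in 13.0% of these windows. A match describes the letters only and is not a measured binding site.

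Acta2 (gene ID 11475, chr19:34240336-34255585) encodes smooth muscle alpha-actin, the thin filament of the vessel wall. Its levels in knockout hearts 1 to 5 were 8.54, 7.83, 8.19, 7.93 and 7.52. Wild-type hearts at ZT12 had a lowest level of 7.78, a median of 8.01 and a highest level of 8.26. At ZT0 the lowest wild-type level was 8.10, the median 8.27 and the highest 8.89. Knockout values fell on both sides of all wild-type hearts at ZT12, while 5 of 7 wild-type hearts at ZT12 lay below every wild-type heart at ZT0. Means were 8.0 ± 0.38 (SD, n = 5) in knockout hearts, 8.02 ± 0.15 (SD, n = 7) in wild-type hearts at ZT12 and 8.38 ± 0.28 (SD, n = 7) in wild-type hearts at ZT0.

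Myh11 (gene ID 17880, chr16:14194527-14292188) encodes smooth muscle myosin heavy chain, the motor of the thick filament. Its levels in knockout hearts 1 to 5 were 6.75, 6.11, 6.35, 6.14 and 5.96. Wild-type hearts at ZT12 had a lowest level of 5.72, a median of 6.09 and a highest level of 6.16. At ZT0 the lowest wild-type level was 5.96, the median 6.04 and the highest 6.59. The 3 groups overlapped, and 2 of 5 knockout hearts lay above every wild-type heart at ZT12. Means were 6.26 ± 0.31 (SD, n = 5) in knockout hearts, 6.0 ± 0.16 (SD, n = 7) in wild-type hearts at ZT12 and 6.14 ± 0.21 (SD, n = 7) in wild-type hearts at ZT0.

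Tagln (gene ID 21345, chr9:45929628-45936058) encodes transgelin, also called SM22 alpha, an actin-binding protein of smooth muscle. Its levels in knockout hearts 1 to 5 were 6.25, 5.49, 5.92, 5.63 and 4.83. Wild-type hearts at ZT12 had a lowest level of 5.21, a median of 5.58 and a highest level of 5.91. At ZT0 the lowest wild-type level was 5.21, the median 5.71 and the highest 6.12. All 3 groups overlapped, with the highest and the lowest heart of the series both among the knockouts. Means were 5.63 ± 0.53 (SD, n = 5) in knockout hearts, 5.57 ± 0.22 (SD, n = 7) in wild-type hearts at ZT12 and 5.71 ± 0.29 (SD, n = 7) in wild-type hearts at ZT0.

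**Figure D1:**
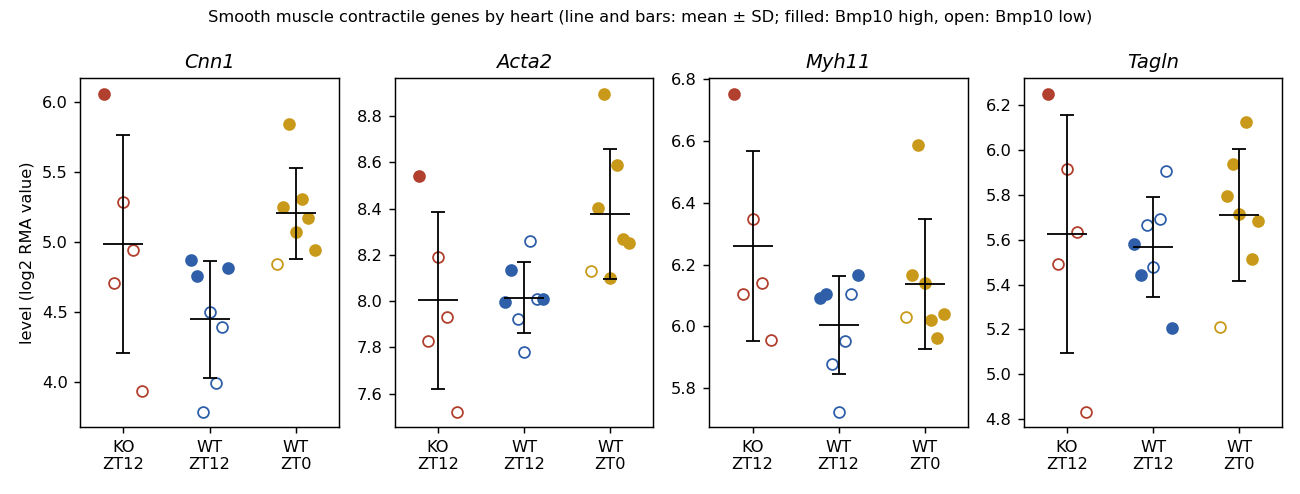
Level (log2 RMA value) of Cnn1, Acta2, Myh11 and Tagln in each heart, by group, with lines and bars for the mean ± SD and with filled points for hearts high in Bmp10 and open points for hearts low in it. Knockout values of Cnn1 run from 3.93 to 6.06, past the highest heart of both wild-type groups, and the lowest of the series is a wild-type heart at ZT12, at 3.79.

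The first comparison set knockout hearts against wild-type hearts at ZT12 and asked how loss of Rev-erb alpha at that time of day bears on these genes. None of the 4 members was called, at an adjusted p under 0.05, where 0.73% of all genes (162) were. Cnn1 differed by 0.54 on the log2 scale (SE 0.26, 95% interval -0.010 to 1.09, adjusted p 0.483), a 1.45-fold higher mean in knockout hearts. Its unadjusted p was 0.0540, and 10.6% of all genes had one under 0.05. Myh11 differed by 0.26 (SE 0.12, adjusted p 0.473), with an unadjusted p of 0.0501. For Tagln the difference was 0.058 (95% interval -0.32 to 0.44, adjusted p 0.951), and for Acta2 it was -0.013 (95% interval -0.32 to 0.30, adjusted p 0.989). Differences of about 0.3 in either direction thus lie inside the intervals of both. The Cnn1 difference moved with single hearts: it was 0.27 without knockout replicate 1 and 0.80 without knockout replicate 5, and neither was called. For Myh11 the difference without knockout replicate 1 was 0.13. With the mean of the atrial markers as a covariate, Cnn1 differed by 0.95 (SE 0.16, adjusted p 0.00659), the 1 setting of this comparison in which a member was called. With the elastic artery marker mean as a covariate, the Cnn1 difference was 0.33 (adjusted p 0.676), that of Myh11 was 0.16 (adjusted p 0.666) and those of Acta2 and Tagln were -0.14 and -0.10. With the atrial covariate they were 0.41 for Myh11 (adjusted p 0.0938), 0.13 for Acta2 and 0.21 for Tagln. Among hearts low in Bmp10, Cnn1 ran from 3.93 to 5.29 in 4 knockout hearts and from 3.79 to 4.50 in 4 wild-type hearts at ZT12. The difference within them was 0.55 (SE 0.26, adjusted p 0.627). Among hearts high in Bmp10, Cnn1 was 6.06 in the single knockout heart and 4.76 to 4.87 in 3 wild-type hearts at ZT12. The part of atrial tissue in the Cnn1 difference was not tested beyond these fits.

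The second comparison set wild-type hearts at ZT12 against wild-type hearts at ZT0 and asked for a time-of-day difference. No member was called, where 1.13% of all genes (250) were, with 0.482% of all genes called lower at ZT12. Cnn1 had the widest difference, -0.76 (SE 0.24, 95% interval -1.26 to -0.26, adjusted p 0.164), a 1.69-fold lower mean at ZT12, with 7 of 7 hearts below the ZT0 mean. Acta2 differed by -0.36 (SE 0.14, 95% interval -0.64 to -0.080, adjusted p 0.281), a 1.28-fold lower mean, again with 7 of 7 hearts below the ZT0 mean. The unadjusted p was 0.00480 for Cnn1 and 0.0144 for Acta2, and 11.5% of all genes had one under 0.05. Myh11 differed by -0.13 (SE 0.11, adjusted p 0.713) and Tagln by -0.14 (SE 0.17, adjusted p 0.803), each with 6 of 7 hearts at ZT12 below the ZT0 mean. When only the 14 wild-type arrays were fitted, the Cnn1 difference of -0.76 (SE 0.18) had an adjusted p of 0.0495 and was called. With the atrial marker mean as a covariate the Cnn1 difference was -0.41 (adjusted p 0.270), and with the elastic artery marker mean it was -0.52 (adjusted p 0.489). The Acta2 difference was -0.24 with the atrial and -0.21 with the elastic artery covariate, and -0.14 in hearts low in Bmp10, which hold 1 wild-type heart at ZT0. That of Myh11 was -0.0035 with the atrial and -0.019 with the elastic artery covariate, and that of Tagln was -0.011 and 0.041. Among hearts high in Bmp10, Cnn1 ran from 4.76 to 4.87 in 3 wild-type hearts at ZT12 and from 4.95 to 5.85 in 6 wild-type hearts at ZT0. The difference among these hearts was -0.45 (SE 0.16, adjusted p 0.418) and was not called. The split by Bmp10 was made after the data were seen.

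In the third comparison, of knockout hearts at ZT12 with wild-type hearts at ZT0, genotype and time differ together and cannot be told apart. It shares the knockout hearts with the first comparison and the ZT0 hearts with the second. No member was called, where 1.34% of all genes (298) were, with 0.965% called higher in knockout hearts. Acta2 differed by -0.37 (SE 0.15, 95% interval -0.68 to -0.066, adjusted p 0.276) and Cnn1 by -0.22 (SE 0.26, adjusted p 0.811). The unadjusted p of Acta2 was 0.0198, and 12.6% of all genes had one under 0.05. Myh11 differed by 0.12 (SE 0.12, adjusted p 0.756) and Tagln by -0.086 (SE 0.18, adjusted p 0.911).

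**Figure D2:**
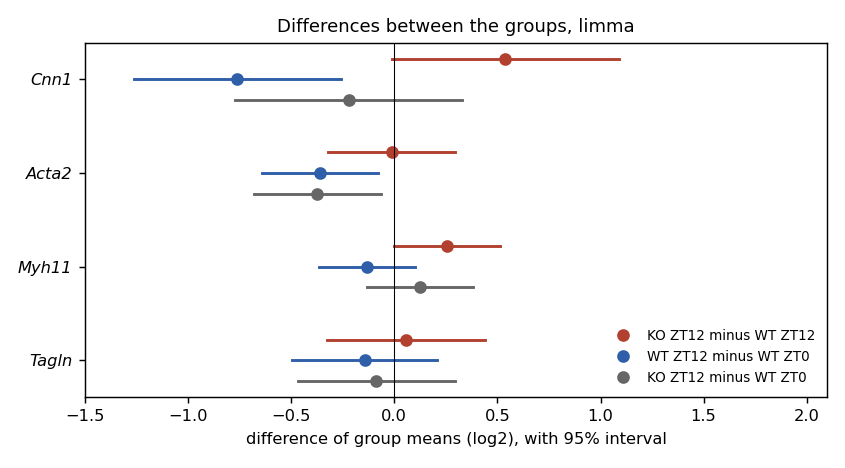
Difference of group means (log2) of the 4 members in the 3 comparisons, as points with 95% intervals from limma. The interval of Cnn1 at wild-type ZT12 minus wild-type ZT0 runs from -1.26 to -0.26 and that of Acta2 from -0.64 to -0.080.

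The members varied more from heart to heart than most genes did. Within groups the SD of Cnn1 was 0.508, larger than that of 99.5% of the genes tested, where the median gene had 0.183. The within-group SD was 0.348 for Tagln (above 95.9% of genes), 0.274 for Acta2 (above 87.2%) and 0.223 for Myh11 (above 71.1%). From the lowest to the highest heart, Cnn1 spanned 2.27 on the log2 scale, a 4.82-fold range. The ranges were 2.67-fold for Tagln, 2.58-fold for Acta2 and 2.04-fold for Myh11. Every member was above the array median in 19 of 19 hearts.

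The same hearts were high or low for several members. Knockout replicate 1 was the highest of 19 hearts for Cnn1, Myh11 and Tagln and among the 3 highest for Acta2. Wild-type ZT0 replicate 3 was the highest for Acta2 and among the 3 highest for the other members. Knockout replicate 5 was the lowest of 19 for Acta2 and Tagln and ranked 18 for Cnn1 and 16 for Myh11. For Tagln both ends of the range were in the knockout group, while the lowest hearts for Cnn1 and Myh11 were wild-type at ZT12.

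Across the 19 hearts, each pair of members was positively correlated, with Pearson's r from 0.544 to 0.780 over 6 pairs. Cnn1 and Myh11 had r = 0.780 (permutation p 0.00012, adjusted 0.00072) and Spearman's rho 0.654 (permutation p 0.0031, adjusted 0.0062). Cnn1 and Acta2 had r = 0.750 (permutation p 0.00026, adjusted 0.00078) and rho 0.765 (permutation p 0.00013, adjusted 0.00078). These pairs held at r = 0.669 and 0.748 without the 2 hearts farthest from the Cnn1 median. Acta2 and Tagln had r = 0.718 (permutation p 0.00059, adjusted 0.00118) and rho 0.660 (permutation p 0.0025, adjusted 0.0062), with r = 0.621 without the 2 farthest hearts.
The other pairs had a lower r across the 19 hearts. Acta2 and Myh11 had r = 0.621 (permutation p 0.0051, adjusted 0.00765) and rho 0.404 (permutation p 0.087, adjusted 0.087), with r = 0.474 without the 2 farthest hearts. Cnn1 and Tagln had r = 0.586 (permutation p 0.0082, adjusted 0.00984) and rho 0.626 (permutation p 0.0046, adjusted 0.0069), with r = 0.568 without them. Myh11 and Tagln had r = 0.544 (permutation p 0.018, adjusted 0.018) and rho 0.443 (permutation p 0.058, adjusted 0.0696). That relation rested on wild-type ZT0 replicate 3 and knockout replicate 1, without which r was 0.268. The order of the pairs changed after each group's mean was subtracted. Acta2 and Myh11 then had the highest r, 0.816, beside 0.815 for Cnn1 and Myh11. For Acta2 and Tagln r was 0.768, for Cnn1 and Acta2 0.747, for Cnn1 and Tagln 0.602 and for Myh11 and Tagln 0.573.

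The correlations differed in size between groups of hearts. Within the 7 wild-type hearts at ZT12, r ranged from -0.557 for Cnn1 and Tagln to 0.529 for Cnn1 and Myh11. Within the 7 wild-type hearts at ZT0 it ranged from 0.392 for Myh11 and Tagln to 0.932 for Cnn1 and Acta2. These are descriptions, since the difference between the groups was not tested. Among hearts high in Bmp10 (n = 10), r ran from 0.568 for Myh11 and Tagln to 0.843 for Cnn1 and Myh11. Among hearts low in Bmp10 (n = 9), r ran from 0.294 for Cnn1 and Tagln to 0.683 for Cnn1 and Myh11. Without knockout replicates 1 and 5, r was 0.696 for Cnn1 and Myh11, 0.659 for Cnn1 and Acta2, 0.582 for Acta2 and Myh11 and 0.558 for Acta2 and Tagln. It was 0.303 for Cnn1 and Tagln and 0.343 for Myh11 and Tagln, so the Tagln pairs leaned most on those 2 hearts.

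**Figure D3:**
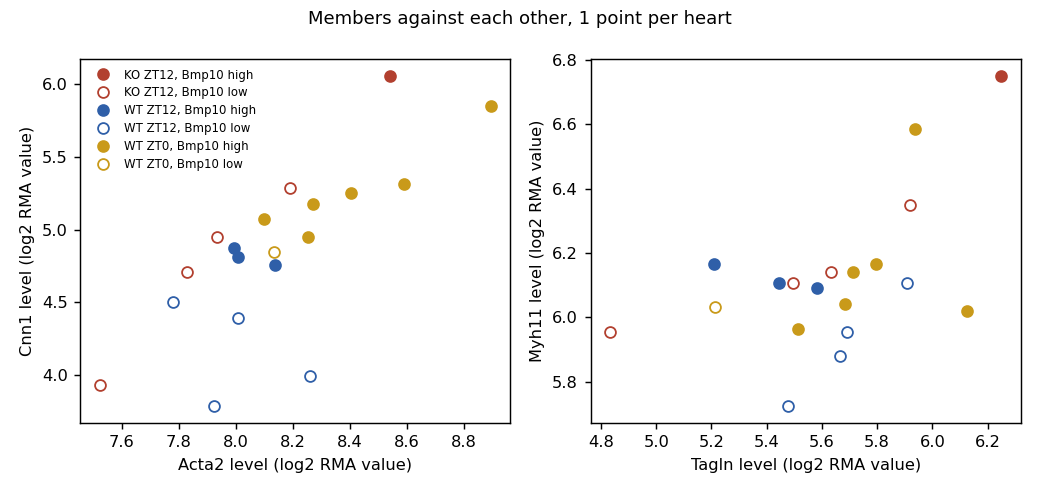
Levels (log2 RMA value) of the members against each other, 1 point per heart, coloured by group and filled where Bmp10 is high. Knockout replicate 1, at 6.06 for Cnn1, lies at the upper end of the range, and knockout replicate 5, at 3.93, near the lower end.

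Markers of other cell types moved with the members to different degrees. The mean of 8 elastic artery markers, of the wall of large arteries, was 5.16 to 5.99 in knockout hearts, 5.15 to 5.48 in wild-type hearts at ZT12 and 5.33 to 5.71 in wild-type hearts at ZT0. It followed all 4 members, with r = 0.603 for Cnn1 (adjusted permutation p 0.0268 over 44 relations), 0.575 for Myh11 (adjusted 0.0406), 0.569 for Acta2 (adjusted 0.0406) and 0.553 for Tagln (adjusted 0.044). Spearman's rho was 0.707 (adjusted 0.011), 0.615 (adjusted 0.0264), 0.628 (adjusted 0.022) and 0.642 (adjusted 0.0204) for the same genes in that order. Without the 2 hearts farthest from the median of the marker mean, r was 0.645 for Cnn1, 0.483 for Myh11, 0.671 for Acta2 and 0.562 for Tagln. It was 0.415 to 0.663 over the 4 members in hearts high in Bmp10 and 0.492 to 0.794 in hearts low in it. Fibroblast markers had r = 0.692 with Cnn1 (adjusted permutation p 0.0242) and endothelial markers 0.686 (adjusted permutation p 0.0242). With Acta2 they had r = 0.602 (adjusted permutation p 0.0288) and 0.623 (adjusted permutation p 0.0268). Adipocyte markers had r = 0.624 with Cnn1 and 0.632 with Myh11, and mesothelium markers 0.611 with Cnn1 (adjusted permutation p 0.0268 for each of these) and 0.633 with Acta2 (adjusted permutation p 0.0264). For these 8 relations Spearman's rho was 0.570 to 0.709 (adjusted permutation p 0.011 to 0.0352), and r without the 2 farthest hearts was 0.474 to 0.774. Within the hearts high in Bmp10, r of Cnn1 was 0.157 with fibroblast and 0.166 with endothelial markers, and within the hearts low in it 0.742 and 0.806. Of the 44 relations 14 had an adjusted permutation p under 0.05 by Pearson's r and 15 by Spearman's rho. Pericyte markers, of the mural cells of capillaries, passed for no member, with r from -0.459 to -0.291. Atrial markers had r = 0.658 with Cnn1 and 0.645 with Acta2 (adjusted permutation p 0.0264 for each). With Myh11 they had r = 0.382 (adjusted permutation p 0.169) and with Tagln 0.428 (adjusted permutation p 0.142). The permutations ran across all 19 hearts, so group differences enter these r and p values. After each group's mean was subtracted, atrial markers had r = 0.845 with Cnn1, 0.698 with Myh11, 0.530 with Acta2 and 0.461 with Tagln. Elastic artery markers then had r = 0.478 to 0.552 over the 4 members. Cardiomyocyte markers then had -0.603 to -0.203, beside -0.386 to 0.021 before. The r after subtraction were not tested. Bmp10 splits the hearts, so r with atrial markers was also taken within its classes. For Cnn1 it was 0.453 in hearts high in Bmp10 and 0.364 in those low in it, and for Acta2 0.639 and 0.443. Hearts low in Bmp10 still differed in the atrial marker mean, from 5.19 to 8.29. Markers of lung, all 4 of them, and 4 of 6 of skeletal muscle (Myh1, Myh2, Myh4 and Mylpf) averaged below the array median in every group. The part of elastic artery, fibroblast, endothelial, adipocyte, mesothelial or atrial tissue in the members' spread was not tested beyond the covariate fits above.

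The other genes of the contractile apparatus were taken from a list of 19, of which 18 were measured. Their levels differed widely, with Des at 10.39 to 10.68 and Myl6 and Actg2 above the array median in 5 and 7 of 19 hearts. Which cells of the heart made these transcripts was not tested. None of the 18 passed in any of the 3 comparisons, where 0.73%, 1.13% and 1.34% of all genes were called. In knockout against wild-type hearts at ZT12, 12 of the 18 differences were above 0 and 6 below, with a median of 0.023 where all genes had -0.0030. Of all 22180 genes, 10866 were above 0 there. Tpm2, a tropomyosin of smooth muscle, differed by -0.36 (adjusted p 0.543), Pcp4l1, a relative of the calmodulin regulator Pcp4, by -0.20 (adjusted p 0.298) and Cald1, the actin-binding caldesmon, by 0.16 (adjusted p 0.551). In wild-type hearts at ZT12 against ZT0, 2 differences were above 0 and 16 below, with a median of -0.070 where all genes had -0.0035. Over all genes, 11346 of 22180 were below 0. The 18 genes were read in the same hearts and are not independent, and these counts of signs were not tested. Myl9, the regulatory light chain of smooth muscle myosin, had the smallest p among them and averaged 6.25 ± 0.20 at ZT12 and 6.70 ± 0.22 at ZT0 (SD, n = 7 each). Its difference was -0.45 (SE 0.15, adjusted p 0.174), and 4 of 7 hearts at ZT12 lay below every heart at ZT0. Cald1 differed by -0.24 (adjusted p 0.207), and Kcnmb1, a subunit of the large calcium-activated potassium channel, by 0.21 (adjusted p 0.502). In knockout hearts at ZT12 against wild-type hearts at ZT0, 6 differences were above 0 and 12 below, with a median of -0.036 where all genes had -0.0076. Over all genes, 11584 of 22180 were below 0. Pcp4l1 had a difference of -0.27 (adjusted p 0.0929), Myl9 of -0.46 (adjusted p 0.198) and Tpm2 of -0.44 (adjusted p 0.341).

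**Figure D4:**
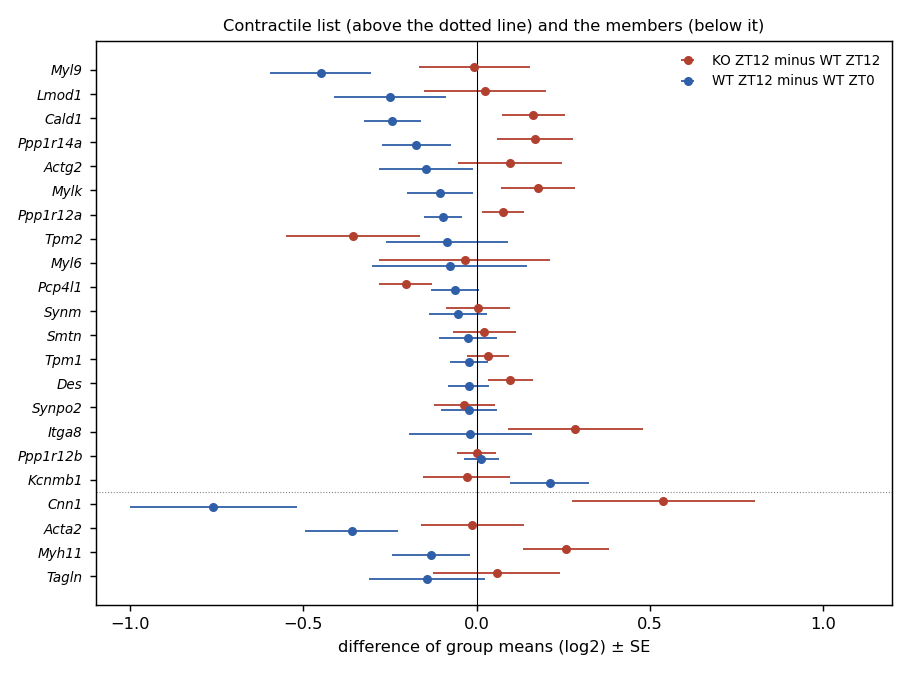
Difference of group means (log2) ± SE for the 18 measured genes of the contractile list, above the dotted line, and the 4 members, below it. In wild-type hearts at ZT12 minus ZT0, 16 of the 18 lie below 0, as do 11346 of all 22180 genes, and none of the 18 passed the test. The 18 genes were read in the same hearts and are not independent.

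Transcription factors and signals that control smooth muscle genes, 22 in all, had no call between the genotypes at ZT12 or between the times of day. Gata6, a zinc finger factor of vascular smooth muscle and heart, averaged 7.71 ± 0.14 (SD, n = 5) in knockout hearts, 7.36 ± 0.12 (SD, n = 7) in wild-type hearts at ZT12 and 7.28 ± 0.15 (SD, n = 7) in wild-type hearts at ZT0. It rose in knockout hearts against wild-type hearts at ZT0, by 0.43 (adjusted p 0.00935), the 1 call of the list. In that comparison 0.965% of all genes were called higher. Against wild-type hearts at ZT12 the Gata6 difference was 0.35 (adjusted p 0.0533). With the atrial marker mean as a covariate the adjusted p of the call was 0.0629. Between the genotypes at ZT12, the ligand Tgfb3 differed by 0.28 (adjusted p 0.197) and its receptor Tgfbr1 by 0.25 (adjusted p 0.515). Between the times of day, Srf, serum response factor itself, differed by -0.17 (adjusted p 0.410), Mrtfb, a coactivator of serum response factor, by 0.25 (adjusted p 0.125) and the receptor Notch2 by -0.20 (adjusted p 0.404). In knockout hearts against wild-type hearts at ZT0, Mrtfb differed by 0.25 (adjusted p 0.146) and Tead1, a partner of YAP, by -0.20 (adjusted p 0.311).

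Genes that set vessel tone were measured for 17 of 22 listed. Of these, 2 rose in knockout against wild-type hearts at ZT12, where 0.442% of all genes were called higher. Pde3a, a phosphodiesterase that breaks down cyclic AMP and is also made by cardiomyocytes, averaged 7.62 ± 0.16 (SD, n = 5) in knockout hearts, 6.94 ± 0.13 (SD, n = 7) in wild-type hearts at ZT12 and 7.22 ± 0.049 (SD, n = 7) in wild-type hearts at ZT0. It rose 1.61-fold in knockout against wild-type hearts at ZT12 (0.68, SE 0.076, adjusted p 3.49e-05), with 5 of 5 knockout hearts above every wild-type heart. Between the times of day it fell in wild-type hearts at ZT12 by 0.28 (adjusted p 0.0497), with 7 of 7 hearts below every ZT0 heart, but that call was kept in 1 of 14 fits that left out a heart. Prkg1, the cyclic GMP-dependent kinase that relaxes smooth muscle, averaged 6.65 ± 0.20 (SD, n = 5) in knockout hearts and 6.26 ± 0.16 (SD, n = 7) in wild-type hearts at ZT12. It rose by 0.40 (adjusted p 0.0450), a call kept in 3 of 12 fits that left out a heart but not in a fit of these 12 arrays alone (adjusted p 0.138). Mrvi1, a substrate of that kinase, differed by -0.28 (adjusted p 0.315). Agtr1a, the angiotensin II receptor, averaged 6.54 ± 0.063 at ZT12 and 6.14 ± 0.16 at ZT0 in wild-type hearts (SD, n = 7 each). It rose at ZT12 by 0.39 (SE 0.087, adjusted p 0.0239), with 7 of 7 hearts above every ZT0 heart, and was kept in 9 of 14 fits that left out a heart. It was lost with the atrial covariate (adjusted p 0.0746) and the elastic artery covariate (adjusted p 0.132). Kcnma1, the pore of the same potassium channel as Kcnmb1, differed by -0.23 (adjusted p 0.226). In knockout hearts against wild-type hearts at ZT0, Prkg1 rose by 0.63 (adjusted p 0.000428) and Pde3a by 0.40 (adjusted p 0.00722), and Mrvi1 differed by -0.40 (adjusted p 0.0602). The list medians were 0.046, -0.053 and 0.0013 in the 3 comparisons in the order given above. Calls of the list were 2 higher in the first, 1 higher and 1 lower in the second and 2 higher in the third. Over all genes, 0.73%, 1.13% and 1.34% were called.

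The paralogs of the members, which are made in other cell types, were measured for 12 genes. Over all genes, 0.73%, 1.13% and 1.34% were called in the 3 comparisons, in the order given above. Acta1, the skeletal muscle actin that is also made in cardiomyocytes, fell 3.38-fold in knockout against wild-type hearts at ZT12 (-1.76, SE 0.36, adjusted p 0.0242), with 5 of 5 knockout hearts below every wild-type heart. It averaged 7.08 ± 0.86 (SD, n = 5) in knockout hearts, 8.84 ± 0.73 (SD, n = 7) in wild-type hearts at ZT12 and 8.55 ± 0.54 (SD, n = 7) in wild-type hearts at ZT0. The call was lost without knockout replicate 2 (adjusted p 0.0633) and without knockout replicate 5 (adjusted p 0.0757), and also in a fit of only the arrays compared (adjusted p 0.0808). The difference was -2.50 in hearts low in Bmp10 (adjusted p 0.0771) and -0.090 in hearts high in it, which hold 1 knockout heart. No other paralog was called between the genotypes at ZT12. There the actins Actb, Actc1, Actg1 and Actg2 differed by 0.022, -0.0063, -0.076 and 0.097. The calponins Cnn2 and Cnn3 differed by -0.14 and -0.070, and Tagln2 and Tagln3 by -0.23 and 0.024. The non-muscle myosins Myh9, Myh10 and Myh14 differed by -0.099, -0.047 and -0.045. None of the 12 passed between the times of day, where Actb differed by -0.26 (adjusted p 0.172), Cnn2 by -0.21 (adjusted p 0.247), Cnn3 by 0.12 and Acta1 by 0.29 (adjusted p 0.801). In the same comparison Actc1, Actg1 and Actg2 differed by 0.013, -0.16 and -0.15, Myh9, Myh10 and Myh14 by -0.035, -0.20 and 0.022, and Tagln2 and Tagln3 by 0.0077 and -0.072. In knockout hearts against wild-type hearts at ZT0, Acta1 fell by 1.47 (adjusted p 0.0458) and Cnn2, a calponin of non-muscle cells, by 0.36 (adjusted p 0.0322). These calls were kept in 2 and 3 of 12 fits that left out a heart.

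Of the marker genes of other cell types, 3 were called: 1 of 8 elastic artery, 1 of 10 endothelial and 1 of 5 mesothelial genes. The other marker lists had no call. Over all genes, 0.73%, 1.13% and 1.34% were called in the 3 comparisons, in the order given above. Eln, the elastin of arterial walls, averaged 5.02 ± 0.59 (SD, n = 5) in knockout hearts, 4.33 ± 0.18 (SD, n = 7) in wild-type hearts at ZT12 and 5.0 ± 0.19 (SD, n = 7) in wild-type hearts at ZT0. It fell in wild-type hearts at ZT12 against ZT0 by 0.66 (adjusted p 0.0481), a call kept in 1 of 14 fits that left out a heart, and differed by 0.69 between the genotypes at ZT12 (adjusted p 0.0811). Kdr, an endothelial receptor for vascular endothelial growth factor, fell at ZT12 against ZT0 by 0.52 (adjusted p 0.00160). Lrrn4, a mesothelial gene above the array median in 9 of 19 hearts, fell in knockout hearts against wild-type hearts at ZT12 by 0.53 (adjusted p 0.0359), a call kept in 4 of 12 such fits and lost with the atrial covariate (adjusted p 0.101). The genes with the smallest p in the other marker lists did not pass. Between the wild-type times these were Higd1b of pericytes (0.19, adjusted p 0.512) and Col1a1 of fibroblasts (-0.32, adjusted p 0.377). Between the genotypes at ZT12 they were Ryr2 of cardiomyocytes (0.21, adjusted p 0.106), Lep of adipocytes (0.57, adjusted p 0.427) and Sftpb of lung (0.25, adjusted p 0.630). In knockout hearts against wild-type hearts at ZT0 they were Dkk3 of atrial muscle (-1.55, adjusted p 0.141), Adgre1 of macrophages (-0.56, adjusted p 0.0699) and Tnnt3 of skeletal muscle (-0.29, adjusted p 0.282). The median difference of the elastic artery list was 0.13 between the genotypes at ZT12 and -0.16 between the times of day, and that of the atrial list -1.27 and -0.82.

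The genes whose heart-to-heart pattern was most like that of the 4 members were sought among the genes tested. Clone names, predicted genes and small RNAs were left out. Likeness was the correlation with the members' mean over 19 hearts after each group's mean was subtracted. The members were not scaled for this mean, so those with a larger spread, Cnn1 above all, weighed more. Myl9 had r = 0.920, and Itga8, an integrin subunit of smooth muscle, r = 0.901. Next came Map1b, a microtubule-associated protein (0.891), Gnao1, a G protein subunit (0.879), Gprc5a, an orphan receptor (0.873), and Sulf1, an extracellular sulfatase (0.857). After these stood Ptgs2, the inducible cyclooxygenase (0.854), Ccn3, a matrix-associated signal (0.852), Plvap, of endothelial openings (0.851), and F2r, a thrombin receptor (0.847). Of the 10 genes, Myl9 and Itga8 are in the contractile list. For Cnn1 alone the most alike genes were Myl9 (0.946), Map1b (0.928) and Ccn3 (0.915), and for Acta2 they were Wt1, a factor of the mesothelium (0.842), Myh11 (0.816) and Map1b (0.805). For Myh11 they were the mast cell protease Cpa3 (0.868), Gprc5a (0.861) and Itga8 (0.848), and for Tagln Nat8f3 (0.786), Gpnmb (0.774) and Dnajc5 (0.768). The correlations are descriptions across hearts that share the same array normalization, and knockout replicates 1 and 5 had the largest deviations for Cnn1. The median r of the contractile list was 0.226. That of the atrial list was 0.675, of the mesothelium list 0.663, of the fibroblast list 0.609, of the adipocyte list 0.543 and of the elastic artery list 0.465. Macrophage markers had 0.420, the paralogs 0.370 and endothelial markers 0.362, also above the contractile list. Below it were the regulators (0.186), tone genes (0.122), skeletal muscle (0.062), lung (0.032) and cardiomyocyte markers (-0.222). For pericyte markers the median r was -0.104 and for all genes -0.023.

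**Figure D5:**
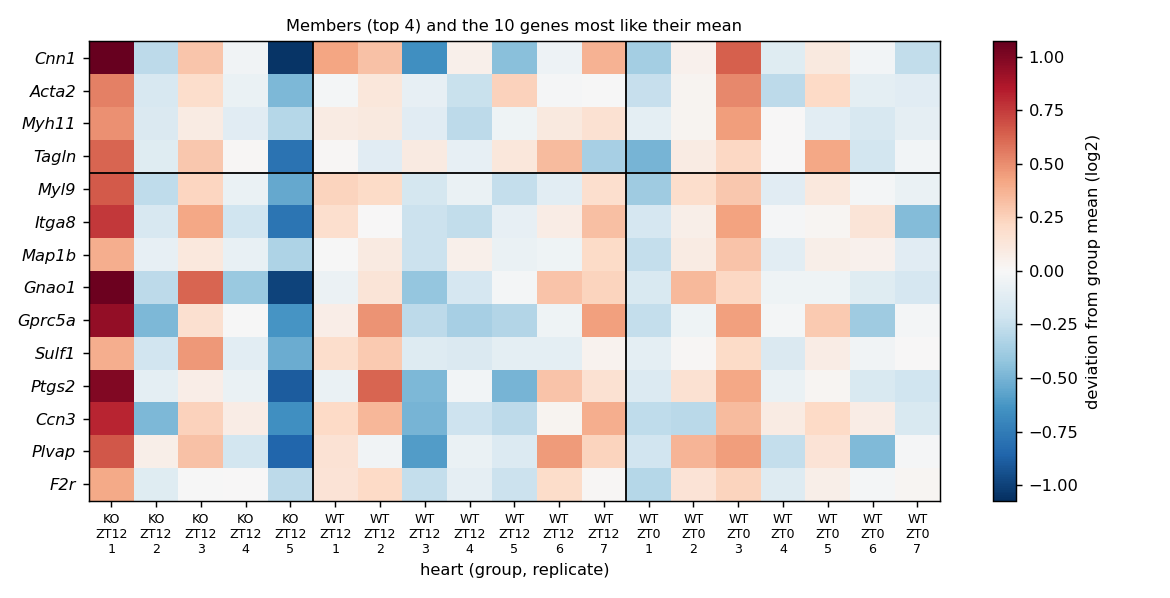
Deviation of each heart from its group mean (log2, colour scale) for the 4 members, at the top, and the 10 genes most like their mean. Cnn1 deviates by 1.07 in knockout replicate 1 and by -1.05 in knockout replicate 5, and the genes below it take the same signs in those hearts. The 10 genes were picked by their likeness over these same hearts, so their shared signs follow from that choice.

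Myl9 is shown because its level followed the members most closely and its promoter can be set beside that of Acta2. The window is the 250 bases before its RefSeq start, chr2:156775214-156775463 on the plus strand of GRCm38.p6, with capitals again at the CArG matches.
Myl9: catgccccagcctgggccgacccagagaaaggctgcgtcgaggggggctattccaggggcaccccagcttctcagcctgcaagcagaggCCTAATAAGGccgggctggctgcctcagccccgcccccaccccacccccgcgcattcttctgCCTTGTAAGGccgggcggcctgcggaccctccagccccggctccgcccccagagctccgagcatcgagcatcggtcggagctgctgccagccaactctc
The window held an exact CArG box, CCTAATAAGG, from -161 to -152, and CCTTGTAAGG, with 1 other base in the centre, from -99 to -90. Of the 18 contractile list genes, 17 had 20 promoter windows in the table, of which 2 held an exact CArG box and 4 one with up to 1 other base. The genes with such a window were Myl6, Myl9, Pcp4l1 and Synm. Of the 10 genes most like the members, 6 had a window, and that of Myl9 alone held a match.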

How the data were processed

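Each of the 19 hearts gave 1 Affymetrix array, hybridised with biotinylated DNA from 300 ng of total RNA per the labels' protocols. The authors deposited probe set values made with RMA per the submitters' processing notes, with no version or annotation given in the sources used here. RMA corrects background, normalizes quantiles and summarises probes. The deposited values were taken as log2, since the lowest was 0.208, the highest 12.88 and the array medians lay between 3.25 and 3.32. Correlations between arrays were 0.972 to 0.985, and no array was a copy of another of its group.

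Of 41345 probe sets, 23521 listed 1 gene in the platform annotation, 1814 several and 16010 none, and the 1814 and 16010 were left out. A gene with several probe sets was read by the one with the highest mean. The symbols were looked up by Entrez identifier in a RefSeq table of GRCm38.p6, which held 23328 of them and changed 0. Group means were fitted with limma 3.58.1 under R 4.3.3, with 1 mean per group over all 19 arrays and eBayes without trend. Tests were two-sided, with Benjamini-Hochberg adjustment over 22180 genes and a threshold of 0.05. Correlations had permutation tests with 100000 resamples, two-sided and adjusted over 6 pairs or 44 marker relations. The fit was tested on simulated data with the spread of each gene and 50 genes shifted by each amount. Over the 3 comparisons it called 8 to 10% of shifts of 0.25 on the log2 scale. It called 62 to 70% of shifts of 0.5 and 96 to 98% of shifts of 1. Shifts of 0.25 were thus mostly missed. False calls were 2.88%, 7.38% and 4.32% of the calls in the 3 comparisons, in the order given above. Promoter sequences are from RefSeq, which held those of 2 of the 4 members.

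The members and gene lists were chosen with earlier results of these data known. Named genes were all members and paralogs, each called gene of the other lists, the 3 with the smallest p per list and comparison, the 10 most alike genes and the 3 per member. Of each marker list the called genes and the gene with the smallest p are named, while Bmp10 and the markers below the array median were chosen after their values were seen. Replicates are called biological in the labels. Alternatives were another eBayes prior, probe set means, a filter on dim genes, other scalings, other sets of arrays, array weights, marker covariates and leaving out each array. Fits with Bmp10, and the correlations without 2 knockout hearts, were added after seeing the data.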

Additional observations from a re-analysis of the deposited data

Results flagged for a closer look

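Myh11 in wild-type ZT0 replicate 3 stood apart from the other hearts of its group, at a level of 6.59. Its gap to the next heart was 0.672 of the group's range, above Dixon's critical value of 0.568 for 7 samples. Chance flags about 1 in 20 groups, and this was the 1 flag among 12 groups of member values. The same heart was the highest of the series for Acta2. Without it, the Myh11 difference between wild-type hearts at ZT12 and ZT0 was -0.057.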

How the results depend on the processing

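Of 308 alternative values of the members' differences, 306 were not called and 2 were called, both for Cnn1. These were 0.95 for knockout minus wild type at ZT12 with the atrial covariate and -0.76 for the wild-type times in a fit of those arrays alone. The sign of some differences turned, and the cause was not tested. For knockout minus wild type at ZT12, Acta2 was 0.028 with array weights, 0.13 with the atrial covariate, 0.046 with Bmp10 class as a block and 0.49 in hearts high in Bmp10. Tagln was -0.10 there with the elastic artery covariate and -0.22 in hearts low in Bmp10. Between the wild-type times, Tagln was 0.041 with the elastic artery covariate and 0.47 in hearts low in Bmp10. For knockout hearts minus wild-type hearts at ZT0, Cnn1 was 0.54 with the atrial covariate, 0.27 with the Bmp10 block and 0.79 in hearts high in Bmp10. Tagln was 0.20, 0.041 and 0.45 under the same alternatives and 0.26 in hearts low in Bmp10, and Acta2 was 0.12 in hearts high in Bmp10. Among hearts high in Bmp10 there was 1 knockout heart, and among those low in it 1 wild-type heart at ZT0, each assumed to vary like the other groups.

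Leaving out 1 heart at a time, differences for knockout minus wild type at ZT12 ran from 0.27 to 0.80 for Cnn1, -0.15 to 0.11 for Acta2, 0.13 to 0.33 for Myh11 and -0.098 to 0.26 for Tagln. Between the wild-type times they ran from -0.83 to -0.65, -0.41 to -0.27, -0.16 to -0.057 and -0.23 to -0.075 for the same genes. For knockout hearts minus wild-type hearts at ZT0 they ran from -0.49 to 0.043, -0.51 to -0.25, 0.0021 to 0.20 and -0.24 to 0.11. Correlations within wild-type hearts at ZT12 were -0.0968 for Cnn1 and Acta2, -0.557 for Cnn1 and Tagln, -0.134 for Myh11 and Tagln, 0.529 for Cnn1 and Myh11 and 0.132 for Acta2 and Tagln. Without knockout replicates 1 and 5, r was 0.303 for Cnn1 and Tagln and 0.343 for Myh11 and Tagln, and the last pair had 0.268 without its 2 farthest hearts.

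Called genes for knockout minus wild type at ZT12 numbered 162, and 267 with an intensity trend, 283 with dim genes left out, 72 with only the arrays compared, 88 with the replicate block, 4 in hearts low and 5 in hearts high in Bmp10, and 94 to 161 without 1 heart. Between the wild-type times they numbered 250, and 431 with dim genes left out, 166 with the elastic artery covariate, 4 and 51 in hearts low and high in Bmp10, and 185 to 251 without 1 heart. For knockout hearts minus wild-type hearts at ZT0 they numbered 298, and 527 with dim genes left out, 187 with only the arrays compared, 182 with the replicate block, 164 with the atrial covariate, 149 with the Bmp10 block, 7 and 16 in hearts low and high in Bmp10, and 171 to 311 without 1 heart. With arrays centred on their medians, 71% of the calls between the wild-type times were higher at ZT12, against 57.2% as deposited. The replicate numbers do not pair the hearts: same-numbered hearts had correlations of their deviations from -0.072 to 0.074, and 0 hearts correlated best with their own number. The replicate block called no member. Within either Bmp10 class alone, no call of a list or marker gene named above was kept. The number of hearts limits the precision.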
